A study of Mus musculus with 2 samples.

Results

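The 35 genes described here make up the cell's main antioxidant and redox defence: superoxide dismutases, catalase, glutathione peroxidases, peroxiredoxins with sulfiredoxin, the thioredoxin system, glutathione synthesis and recycling, 3 glutathione transferases, the NRF2 regulators with their quinone and heme enzymes, and selenoprotein W. They were taken by name and function out of 55536 annotated genes, with no threshold on a measured value, although earlier results of these data were known when they were named. Total RNA was sequenced from the gastrocnemius, a calf muscle, of male B6CASTF1/J mice, a first-generation cross of the laboratory strain C57BL/6J with the wild-derived strain CAST/EiJ. The description gives the age as 18-20 months, while the age field is unknown. The series has 1 group with 2 libraries, replicates 1 and 2, with no treatment, no control and no other tissue, so no comparison of conditions was possible. The RNA input of each library was 300 ng, and ERCC spike-ins (synthetic RNAs in known amounts) had been added. The labels name the libraries biological replicates, yet a single donor record is listed for the pair, so separate animals and repeat samples of 1 source cannot be told apart.

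Oxidative metabolism in muscle forms superoxide, which the superoxide dismutases turn into hydrogen peroxide. Catalase, the glutathione peroxidases and the peroxiredoxins then remove the peroxide. The glutathione and thioredoxin systems return the glutathione peroxidases and peroxiredoxins to their reduced state with electrons from NADPH. KEAP1 holds the transcription factor NRF2 (gene Nfe2l2) at a low level, and oxidants or electrophiles that modify KEAP1 release NRF2, which raises many genes of this group through antioxidant response elements in their promoters.

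All 35 genes were expressed in both libraries, at levels from 1.55 to 828 TPM (a transcript level per length, scaled to the same total in each library). Their summed level was 2632 TPM in replicate 1 and 2687 TPM in replicate 2, or 2660 ± 38.6 TPM (SD, n = 2). That was 0.574% and 0.613% of the TPM of nuclear protein-coding genes. The median gene of the set had a mean of 24.5 TPM, against 8.21 TPM for the 10063 protein-coding genes detected at 1 TPM in both libraries, and 7 members lay below the latter value. Levels were uneven: 7 genes stood at 100 TPM or more in both libraries, and 7 stayed under 5 TPM in both. The 5 most abundant genes, Selenow, Txnip, Gpx4, Gstp1 and Sod2, held 63.2% of the summed level in replicate 1 and 58.2% in replicate 2. This was bulk tissue, so fewer cells of a type and less RNA per cell cannot be told apart in any of these values.

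**Figure D1:**
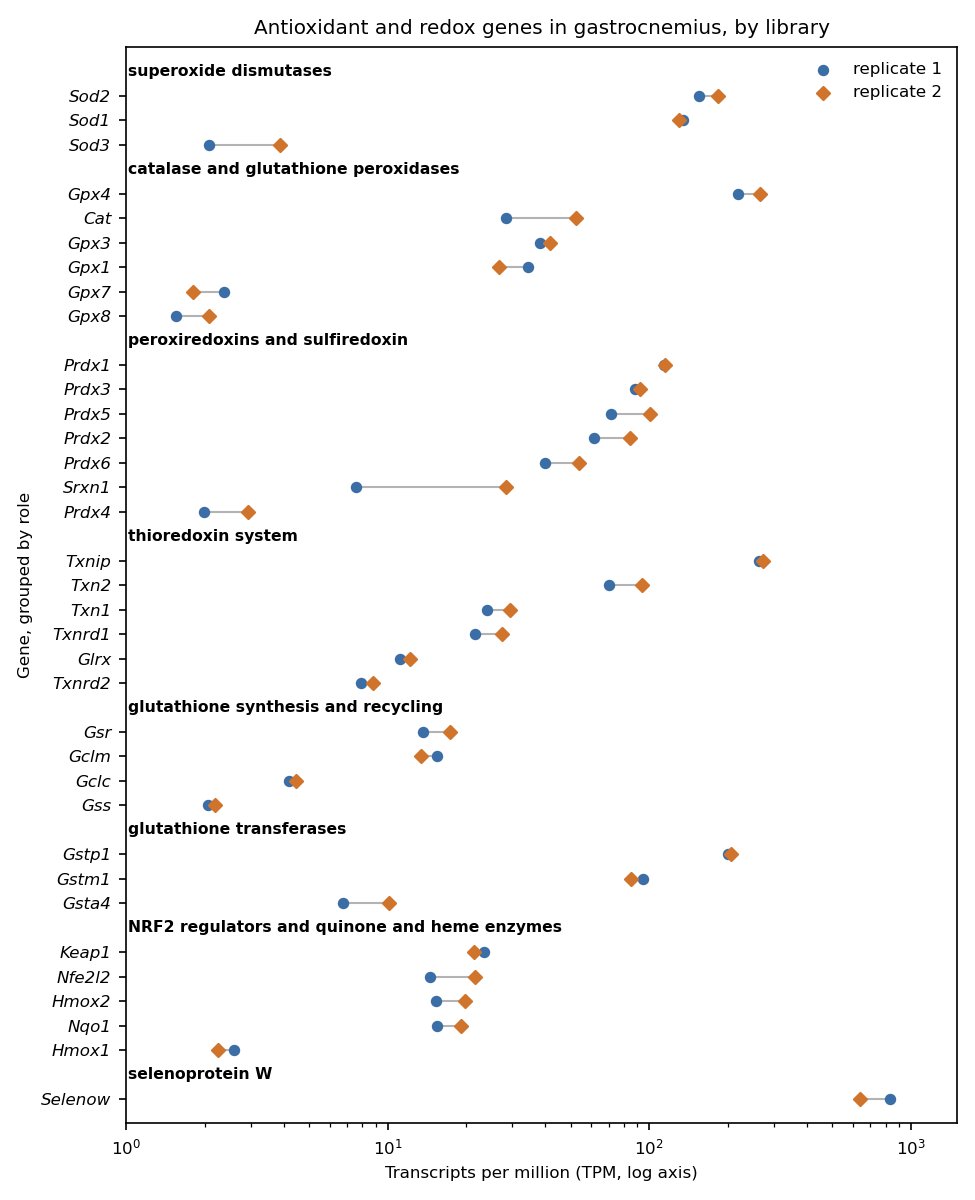
TPM (log axis) of each of the 35 genes in replicate 1 (circles) and replicate 2 (diamonds), grouped by role and joined by a line. Selenow stands at 828 and 638 TPM, well apart from the next gene, and the widest line belongs to Srxn1, at 7.55 and 28.3 TPM.

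The libraries held 40795740 and 44919441 expected counts, and the members had between 46 and 23624 counts each. The muscle was of fast type by its fibre markers: Myh4, the myosin of the fastest fibres, stood at 15964 and 11005 TPM and Myh7, the slow myosin, at 29.4 and 312 TPM. Replicate 2 differed from replicate 1 in that balance. All 8 slow fibre markers were higher there, with sums of 222 and 2366 TPM, while the 8 fast fibre markers summed to 82395 and 63312 TPM, 7 of them with a ratio below 1. The other, Myh1, the myosin of an intermediate fast fibre type, was called higher in replicate 2, at 511 and 1171 TPM. All 14 nuclear genes of oxidative phosphorylation lay above a ratio of 1, with sums of 5389 and 7048 TPM. At the 2-fold limit 0 of them were called. With a 1.5-fold limit 2 were called higher in replicate 2, beside 7.91% of all tested genes. Among other cells, the sums in replicates 1 and 2 were 38.7 and 57.2 TPM for endothelium, 108 and 153 TPM for smooth muscle without Des, 46.2 and 52.5 TPM for macrophages, 284 and 266 TPM for fibroblasts, 29.4 and 42.8 TPM for Schwann cells, and 371 and 483 TPM for erythrocytes. Des, a smooth muscle marker that skeletal fibres also express, was at 996 and 1096 TPM. All 5 other smooth muscle markers lay above a ratio of 1, with 1 called, as did all 6 endothelial and all 6 Schwann cell markers, with 2 called in each. The rule for a call, at the 2-fold limit, is set out in the next paragraph. For comparison, 4.47% of all tested genes met that rule toward replicate 2 and 1.71% toward replicate 1. A ratio above 1 was found for 50.8% of all tested genes. The adipocyte markers summed to 56.8 and 54.3 TPM but went both ways: Adipoq (2.26-fold) and Lep (2.88-fold) were called higher in replicate 2, and Retn was called higher in replicate 1 (2.39-fold). Cfd, the most abundant of them, was at 35.4 and 19.4 TPM. Of the erythrocyte markers, Slc4a1, the anion exchanger of the red cell membrane, had 0 and 4 counts. The part of any of these markers in the results that follow was not tested.

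Replicate 2 was set against replicate 1 by the ratio of each gene's counts, scaled by trimmed mean of M values (TMM), with a 95% exact interval that covers counting error only. A gene was called different where the counts of the 2 libraries differed by an exact binomial test after adjustment over 14959 tested genes, and by at least 2-fold. The calls compare these libraries and say nothing of the spread between animals. By that rule 1 of the 35 members, Srxn1, was called higher in replicate 2, where the background over all tested genes was 4.47%. In the other direction 0 members were called, with a background of 1.71%. With a 1.5-fold limit, 3 members (Srxn1, Cat and Sod3) were called higher in replicate 2 against a background of 7.91%, and 0 were higher in replicate 1 against 3.84%. The median log2 ratio of the members was 0.12, beside 0.0053 over all tested genes. Of the 35 members, 24 lay above 0 (68.6%), compared with 50.8% of all tested genes. The interval lay wholly above a ratio of 1 for 18 members and wholly below for 7, and it held 1 for the other 10. In all, 32 members differed by less than 1.5-fold. The intervals are not adjusted for the number of genes. The matching shares over all tested genes were not computed, so these interval and 1.5-fold counts are not read as results about the members. Scaling by the ERCC spike-ins instead moved the median log2 ratio of all tested genes to 0.23 and that of the members to 0.35, with 30 members above 0. Ratios are therefore relative to the median gene, and 6 members just below 1 (Sod1, Prdx1, Gss, Keap1, Gstm1 and Gstp1) came to lie above it with that scaling.

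**Figure D2:**
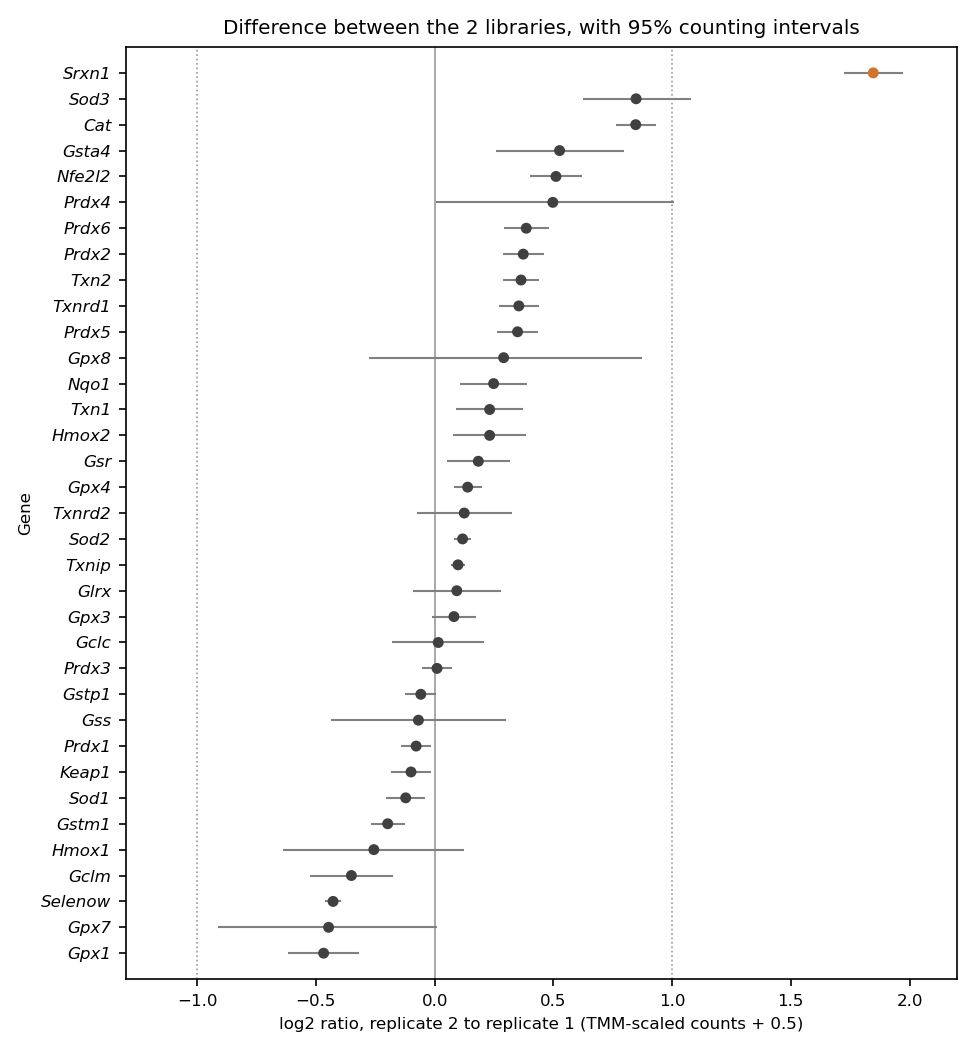
Log2 ratio of replicate 2 to replicate 1 for each of the 35 genes, sorted, with horizontal lines for the 95% counting interval; solid and dotted vertical lines mark no difference and 2-fold. Srxn1 (orange) is the single gene past the 2-fold line, 24 genes lie to the right of 0 and Gpx1 lies lowest.

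Of the superoxide dismutases, the mitochondrial manganese and cytosolic copper-zinc forms both had high gene-level RNA, and the extracellular form had little. For the mitochondrial form, most of that level lay on transcripts not annotated as protein coding, as given below. Sod2, the mitochondrial form, was at 155 TPM in replicate 1 and 182 TPM in replicate 2, and its count ratio was 1.08 (interval 1.06 to 1.11). Sod1, the cytosolic form, was at 135 and 129.5 TPM, and its ratio of 0.919 (0.868 to 0.973) lay on the other side of 1. The 2 genes thus differed little between libraries, and the ratio of Sod1 turned above 1 with ERCC scaling. Sod3, the form secreted into the matrix around vessels and fibres, was at 2.07 and 3.87 TPM. It was 1.80-fold higher in replicate 2 (1.54 to 2.11, from 238 and 487 counts). The endothelial, smooth muscle, Schwann cell, macrophage, erythrocyte, slow fibre and oxidative phosphorylation sums given above were also higher there. The fibroblast, adipocyte and fast fibre sums were lower there, and a link of Sod3 to any of these was not tested.

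The peroxide-removing enzymes outside the peroxiredoxin family were led by Gpx4, the glutathione peroxidase that reduces lipid hydroperoxides in membranes and guards against ferroptosis. It was at 218 and 266 TPM, a count ratio of 1.10 (1.06 to 1.15). Cat encodes catalase, the peroxisomal enzyme that splits hydrogen peroxide without a cofactor to recharge. Cat was at 28.3 and 52.6 TPM and was 1.80-fold higher in replicate 2 (1.70 to 1.91, from 1743 and 3560 counts), the largest ratio among the members with over 30 TPM on average. Gpx3, the secreted plasma form, was at 38.1 and 41.7 TPM with a ratio of 1.06 (0.993 to 1.13). Gpx1, the cytosolic form, went the other way, at 34.3 and 26.7 TPM, and was 1.38-fold higher in replicate 1 (1.25 to 1.54). Gpx1 thus stood above Cat, which acts on the same substrate, in replicate 1 and below it in replicate 2. The forms of the endoplasmic reticulum were rare, with Gpx7 at 2.37 and 1.80 TPM and Gpx8 at 1.55 and 2.08 TPM. Both had under 100 counts in each library and intervals that held 1.

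Peroxiredoxins are thiol peroxidases that handle most of the low-level hydrogen peroxide in cells, and sulfiredoxin repairs those of them that have been over-oxidised. The 7 genes summed to 384 TPM in replicate 1 and 477 TPM in replicate 2, and their median log2 ratio of 0.37 was the highest of the roles. Prdx1, the main cytosolic form, was at 114 TPM in each library, with a count ratio of 0.947 (0.906 to 0.991). Prdx3, the mitochondrial matrix form, was at 88.2 and 92.0 TPM, with a ratio of 1.01 (0.964 to 1.05). These 2 most abundant members of the family therefore hardly differed. Prdx5, found in mitochondria, peroxisomes and cytosol, was at 71.2 and 100.8 TPM, a ratio of 1.27 (1.20 to 1.35). Prdx2, a cytosolic form that is also plentiful in red cells, was at 61.6 and 84.2 TPM, a ratio of 1.30 (1.22 to 1.38). Prdx6, the family's 1-Cys form, which acts on phospholipid peroxides, was at 39.8 and 53.9 TPM, a ratio of 1.31 (1.22 to 1.39). The ratios of Prdx5, Prdx2 and Prdx6 thus overlapped in their intervals. Prdx4, the form of the secretory path, was at 1.99 and 2.92 TPM from 56 and 90 counts.

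Srxn1, which encodes sulfiredoxin, was at 7.55 TPM in replicate 1 and 28.3 TPM in replicate 2, from 647 and 2645 counts. It was 3.60-fold higher in replicate 2 (3.30 to 3.93). It is a known NRF2 and AP-1 target, and its substrates, the 2-Cys peroxiredoxins Prdx1 to Prdx4, had ratios between 0.947 and 1.41. No other NRF2 target among the members was called, as their values below show. Its single annotated coding transcript, Srxn1-201, carried 99.8% of its level.

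The gene lies at chr2:152105516-152111376 on the plus strand of GRCm38 (mm10). The 250 bases before the start site of its promoter window in RefSeq (GRCm38.p6, chr2:152105274-152105523, plus strand) are shown because Srxn1 was the member that differed most. Capitals mark matches to TGANTCA, a broad form of the core of the AP-1 site that allows any base in its middle. This motif was looked up after the values had been seen.
Srxn1: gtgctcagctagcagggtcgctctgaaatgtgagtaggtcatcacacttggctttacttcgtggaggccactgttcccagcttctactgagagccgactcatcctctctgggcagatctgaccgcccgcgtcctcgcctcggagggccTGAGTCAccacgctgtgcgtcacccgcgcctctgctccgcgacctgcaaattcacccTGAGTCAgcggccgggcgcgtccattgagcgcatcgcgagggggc
This stretch held 2 such matches, starting 102 and 45 bases before the start site. It held 0 exact matches to TGACNNNGC, a core of the antioxidant response element, on either strand. The 1 match in the window lay on the opposite strand 28 bases past the start. The second stretch in capitals, with the gc after it, differs from TGACNNNGC only by a G in place of the C. Forms with that G were not searched here or in the windows below.

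Windows of 300 bases, 250 before and 50 after the start, were found for 29 of the 35 members. TGACNNNGC, searched on both strands, was in the windows of 6 of these genes (20.7%), of 4 of the 8 with a window among the genes known as NRF2 targets (50.0%), and of 14.0% of the 27025 genes in the whole table. TGANTCA, which reads the same on both strands, was in the windows of 4 members (13.8%), of 3 of the 8 targets (37.5%) and of 8.97% of all genes. A match is a description of letters, not a bound site, and known elements often lie farther upstream than these windows reach. The stretches around the matches upstream of the start are shown for 3 members as examples of how the motifs sit, with the matches in capitals. In Prdx1 and Gclm the match is on the opposite strand, so the capitals are its reverse complement.
Nfe2l2, chr2:75704883-75704913, minus strand: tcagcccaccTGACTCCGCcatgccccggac
Prdx1, chr4:116685454-116685486, plus strand: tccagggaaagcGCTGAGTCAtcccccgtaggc
Gclm, chr3:122245411-122245443, plus strand: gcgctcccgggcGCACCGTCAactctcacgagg
In Prdx1 the element's core overlaps a TGANTCA match, so the 2 counts share that site. These 3 genes had count ratios of 1.42, 0.947 and 0.784, that is, on both sides of 1.

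The thioredoxin system summed to 398 and 444 TPM, and all 6 of its genes lay above a ratio of 1, though 0 were called. Its most abundant transcript was not an enzyme but Txnip, the arrestin-like protein that binds thioredoxin and also limits glucose uptake, at 263 and 272 TPM. Txnip had a count ratio of 1.07 (1.05 to 1.09). Mitochondrial thioredoxin, Txn2, was at 70.0 and 93.8 TPM, a ratio of 1.29 (1.22 to 1.36). Cytosolic thioredoxin, Txn1, was at 24.1 and 29.3 TPM, a ratio of 1.17 (1.07 to 1.29). The mitochondrial form thus exceeded the cytosolic form in both libraries. The reductases had the opposite order: Txnrd1, the cytosolic enzyme that reduces thioredoxin with NADPH, was at 21.7 and 27.4 TPM, a ratio of 1.28 (1.21 to 1.36). Txnrd2, its mitochondrial counterpart, was at 7.93 and 8.77 TPM, with a ratio of 1.09 (0.949 to 1.25). Glrx, a glutaredoxin that removes glutathione from protein thiols, was at 11.1 and 12.2 TPM, and its interval held 1.

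Glutathione synthesis and recycling had low levels, 35.3 and 37.3 TPM in sum, of which the 3 synthesis genes Gclm, Gclc and Gss held 21.6 and 20.1 TPM. Gclm, the modifier subunit of glutamate-cysteine ligase, which makes the first and limiting step, was at 15.4 and 13.4 TPM. Gclc, the catalytic subunit, was at 4.18 and 4.45 TPM, below its modifier in both libraries. Gclm was 1.28-fold higher in replicate 1 (1.13 to 1.44), while the ratio of Gclc was 1.01 (0.884 to 1.16). Gss, glutathione synthetase, which makes the second step, was at 2.05 and 2.18 TPM, with a ratio of 0.954 (0.739 to 1.23). Gsr, the reductase that returns oxidised glutathione to its reduced form, was at 13.7 and 17.3 TPM, a ratio of 1.14 (1.04 to 1.25).

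Among the glutathione transferases, which couple glutathione to electrophiles, 2 genes carried nearly the whole level. Gstp1 was at 199.8 and 205 TPM, with a ratio of 0.960 (0.918 to 1.01). It shares reads with its near copy Gstp2, which was at 91.4 and 87.0 TPM, and the posterior SD of the count of Gstp1 was 2.00% and 2.46%. Gstm1 was at 94.5 and 84.8 TPM and was 1.15-fold higher in replicate 1 (1.09 to 1.21). Gsta4, the form most active on the lipid peroxidation product 4-hydroxynonenal, was at 6.75 and 10.1 TPM, a ratio of 1.44 (1.20 to 1.74).

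Of the regulators, Nfe2l2, which encodes NRF2, was at 14.5 and 21.5 TPM and was 1.42-fold higher in replicate 2 (1.32 to 1.54). Keap1, its repressor, was at 23.3 and 21.4 TPM, with a ratio of 0.933 (0.880 to 0.990). The level of Keap1 thus stood above that of Nfe2l2 in replicate 1 and level with it in replicate 2. Nqo1, the quinone reductase used most widely as a readout of NRF2, was at 15.5 and 19.1 TPM, a ratio of 1.19 (1.08 to 1.31). Hmox2, the constitutive heme oxygenase, was at 15.3 and 19.7 TPM, a ratio of 1.17 (1.06 to 1.31). Hmox1, the inducible heme oxygenase, was at 2.59 and 2.24 TPM from 120 and 114 counts, and its interval of 0.642 to 1.09 held 1.

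Taking the 12 members known as NRF2 targets as a set, 7 lay above a ratio of 1 and 5 below, with a median log2 ratio of 0.099 beside 0.12 for all members, and Srxn1 was the 1 called. Nqo1, Txnrd1, Txn1, Gsr and Gsta4 had intervals above 1. Gclm, Gstm1 and Prdx1 had intervals below 1, although Gstm1 and Prdx1 lay above 1 with ERCC scaling. Their summed level was 520 TPM in replicate 1 and 556 TPM in replicate 2. By compartment, all 5 members listed as mitochondrial (Sod2, Prdx3, Prdx5, Txn2 and Txnrd2) lay above 1, as did 50.8% of all tested genes. These 5 members summed to 392 and 478 TPM, with a median log2 ratio of 0.12 and 0 called. The intervals of Prdx3 and Txnrd2 held 1, and Prdx5 is also found outside mitochondria. The nuclear genes of oxidative phosphorylation listed above had a median log2 ratio of 0.28 in the same libraries. The 3 members of the secretory path, Prdx4, Gpx7 and Gpx8, summed to 5.91 and 6.80 TPM, the lowest of the compartments.

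**Figure D3:**
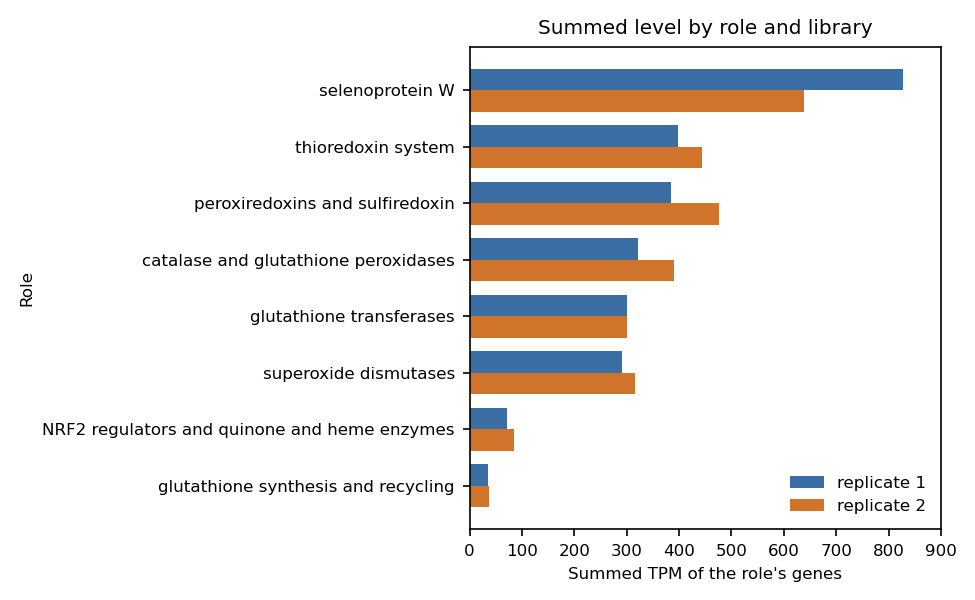
Summed TPM of the genes of each role in replicate 1 (blue) and replicate 2 (orange), 1 bar per library from a linear axis at 0. Selenoprotein W, 1 gene, has the longest bars at 828 and 638 TPM, and glutathione synthesis and recycling has the shortest at 35.3 and 37.3 TPM.

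Selenow encodes selenoprotein W, a small thioredoxin-fold protein that is abundant in skeletal muscle. It lies at chr7:15917208-15922402 on the minus strand of mm10. It was at 828 TPM in replicate 1 and 638 TPM in replicate 2, or 733 ± 134 TPM (SD, n = 2), above 99.5% of the detected protein-coding genes. It made up 31.5% and 23.8% of the members' summed level. It was 1.35-fold higher in replicate 1 (1.32 to 1.38), as were 7 of the 8 fast fibre markers in direction. The other 34 genes together were at 1804 and 2049 TPM, so the near-equal totals of the 2 libraries came from a lower Selenow and a higher remainder in replicate 2.

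Selenow is 1 of 6 members that are selenoproteins, in which a TGA codon is read as selenocysteine. They summed to 1148 and 1009 TPM, or 43.6% and 37.5% of the set's level. The codon is shown in capitals with its coding neighbours, from GENCODE M21 transcripts (GRCm38), to show where in each protein the reactive residue falls.
Selenow, residue 13 of 88, chr7:15920464-15920466, minus strand: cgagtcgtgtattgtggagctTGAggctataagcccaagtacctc
Gpx1, residue 47 of 201, chr9:108339451-108339453, plus strand: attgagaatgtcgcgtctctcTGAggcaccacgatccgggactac
Gpx3, residue 73 of 226, chr11:54907256-54907258, plus strand: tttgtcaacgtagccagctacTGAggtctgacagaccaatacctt
Gpx4, residue 73 of 197, chr10:80054737-80054739, plus strand: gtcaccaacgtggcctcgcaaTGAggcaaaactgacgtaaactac
Txnrd1, residue 498 of 499, chr10:82896037-82896039, plus strand: gacatcctccagtctggctgcTGAggt
Txnrd2, residue 526 of 527, chr16:18477772-18477774, plus strand: gagcctactgtgactggttgcTGAggc
In all 6 the next codon starts with gg and encodes glycine. In the thioredoxin reductases the codon is the last but 1 and follows a cysteine codon (tgc), while in Selenow it lies near the start, and in the peroxidases it lies in the first part of the protein. Of these 6 genes, Selenow and Gpx1 were higher in replicate 1 by their intervals. Gpx4 and Txnrd1 were higher in replicate 2, and Gpx3 and Txnrd2 had intervals that held 1. The 8 genes listed under selenocysteine insertion, not all of them required for it, had a median log2 ratio of 0.025 and 0 called in either direction. Of the other selenoproteins, 13 of 16 were tested and 1 was called, Dio2, an iodothyronine deiodinase, at 0.24 and 0.67 TPM.

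Gene-level TPM adds up all annotated transcripts, including those annotated as making no full protein, and this mattered for several members. Shares per transcript are estimates on which the quantifications can disagree. Prdx1-205, for example, held a mean of 52.2% of Prdx1 in the first quantification and 0 in the second. The share of a gene's TPM on transcripts annotated as protein coding, computed after the values had been seen, was over 90% in both libraries and both deposited quantifications for 24 of the 35 genes. For 5 genes it was under 70% in all 4 values: Prdx6, Sod2, Gstp1, Prdx2 and Gclm. Prdx6 had the lowest share, 19.7% and 17.7% in the first quantification and 20.4% and 13.2% in the second. Most of its level was on Prdx6-208, annotated as a target of nonsense-mediated decay, with 62.8% and 65.4% in the first quantification and 53.3% and 54.5% in the second. Its coding transcripts alone were at 7.82 and 9.55 TPM.

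Sod2 had a coding share of 26.1% and 23.9%, and 35.1% and 33.6% in the second quantification. The leading entry was Sod2-207, a non-coding processed transcript, with 50.5% and 54.2% of the gene's TPM. On coding transcripts alone, Sod2 was at 40.3 and 43.6 TPM, below Sod1 at 134 and 129.2 TPM, so the order of these dismutases depends on which transcripts are counted. Prdx2 had a coding share of 57.4% and 58.1%, and its retained-intron entry Prdx2-205 held 42.4% and 41.6%. Gstp1 had a coding share of 61.2% and 56.6%, and Gclm had 62.3% and 51.8%. On coding transcripts Gclm was at 9.60 and 6.96 TPM, still above Gclc at 3.91 and 4.08 TPM.

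For Gpx4 the quantifications differed: the coding share was 71.9% and 65.1% in the first and 100% and 99.5% in the second. The first put 27.7% and 34.8% of Gpx4 on the retained-intron entry Gpx4-203 and the second put 0 there. The coding share of Gsr was 65.4% and 60.7%, and 76.3% and 81.3% in the second. The genes with the largest differences between libraries were not affected, since the share was 100% for Cat in all 4 values and at least 99.5% for Srxn1. Selenow, Prdx3, Txn1, Nqo1 and Sod3 have 1 annotated transcript each. Among 22 members with a mean of at least 10 TPM and several transcripts, the leading transcript was the same in all 4 values for 14 and differed for 8: Gpx4, Prdx1, Prdx5, Gpx1, Txnrd1, Keap1, Hmox2 and Gclm. Txnrd1-201 led in the first quantification with 55.8% and 48.2%, and Txnrd1-206 led in the second with 57.9% and 59.8%.

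**Figure D4:**
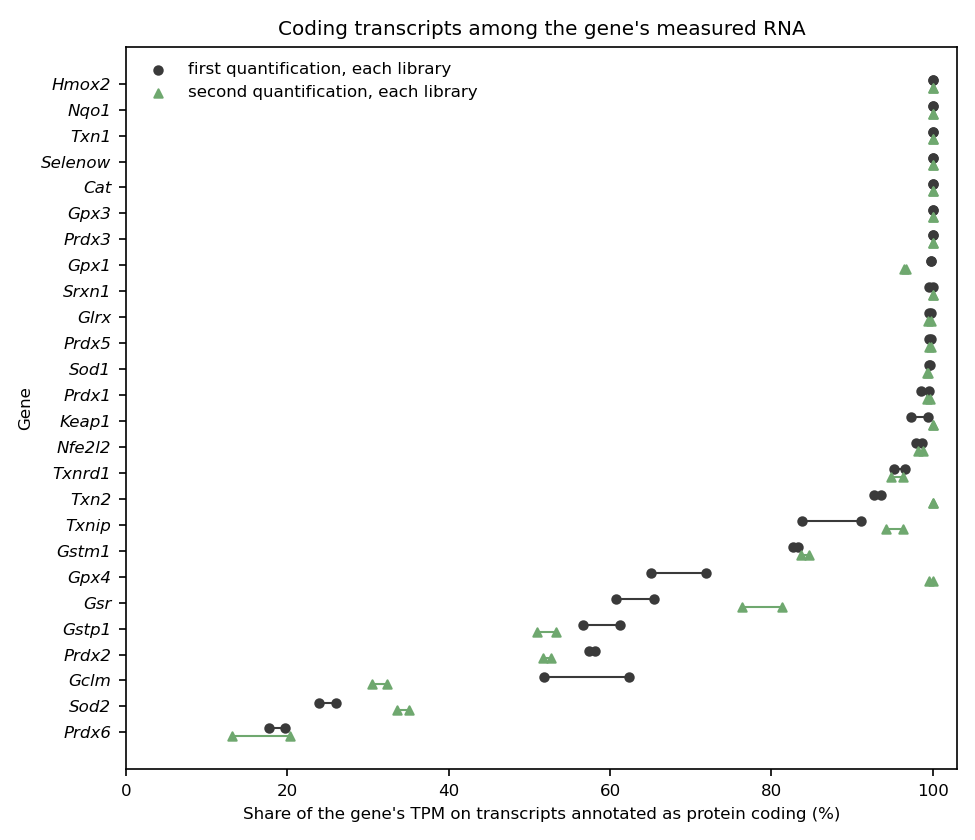
Share (%) of each gene's TPM on transcripts annotated as protein coding, for the 26 members with a mean of at least 10 TPM; black circles are the first quantification and green triangles the second, 1 point per library. Prdx6 lies lowest in both quantifications, with Sod2 next in the first and Gclm next in the second, and the quantifications lie farthest apart for Gpx4 and Gclm.

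Gene-level values were more stable than transcript shares. After both quantifications were scaled to the same protein-coding total, the second gave between 0.776 (Txnip) and 1.78 (Gclm) times the first, and 0 members differed by over 2-fold. Prdx2 was at 1.51 times and Gstp1 at 1.38 times the first quantification. Some members overlap a gene on the opposite strand: Prdx2 lies across from Junb, at 2.98 and 5.28 TPM, Gss across from Acss2, at 8.79 and 20.2 TPM, and Hmox2 across from Cdip1, at 28.2 and 31.5 TPM. The labels name the spike-in mix for stranded libraries, but whether the counting used strand is not given in the sources used here, so reads of such pairs may not be fully separated.

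**Figure D5:**
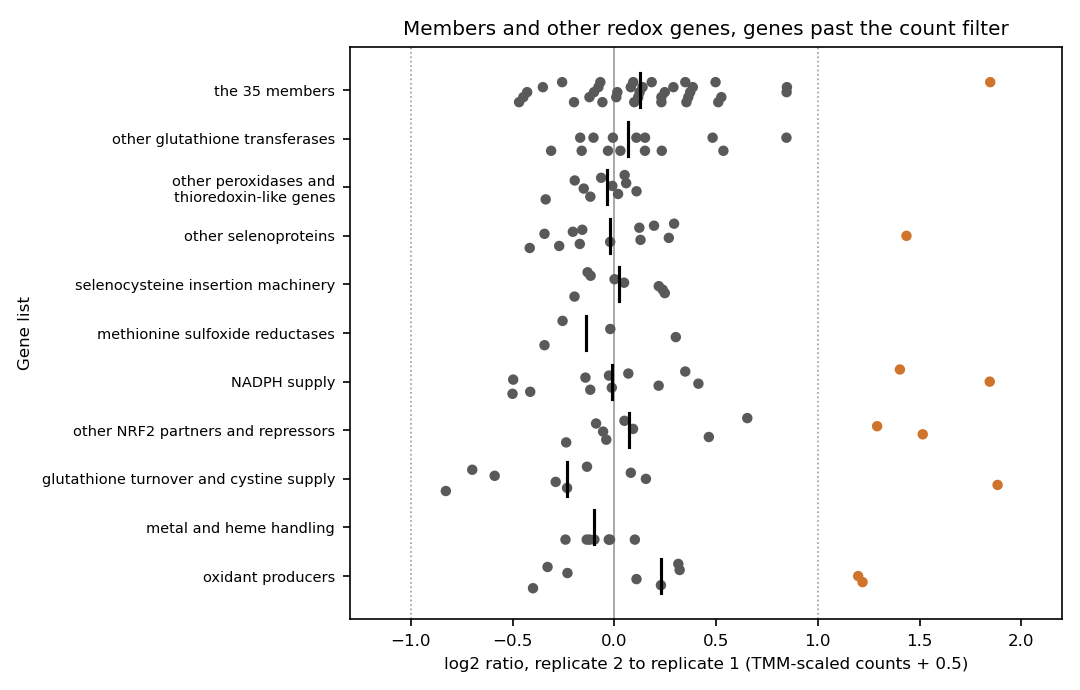
Log2 ratio of replicate 2 to replicate 1 for the members and for 10 lists of other redox genes, 1 point per tested gene, with a black bar at each list's median and called genes in orange. Each list's median lies within 0.25 of 0, and single called genes, such as Srxn1, Idh2 and Chac1, stand apart on the right.

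The same was done for genes that supply, regulate or work beside the members, in lists chosen by function. For each count of 2-fold calls that follows, the background over all tested genes is again 4.47% higher in replicate 2 and 1.71% higher in replicate 1. Of the 13 genes of NADPH supply, which both reductase systems draw on, 2 were called, both higher in replicate 2, and the list's median log2 ratio was -0.012. Idh2, the mitochondrial isocitrate dehydrogenase that makes NADPH in the matrix, was at 58.4 and 217 TPM. It was 3.59-fold higher in replicate 2 (3.45 to 3.74), from 3012 and 12288 counts. Nnt, the proton-driven transhydrogenase of the inner membrane, was at 15.0 and 40.2 TPM, but it has 2 gene entries that share reads, so its 2.65-fold ratio is uncertain. Both act in mitochondria. Me1, the cytosolic malic enzyme and the most abundant of the list in replicate 1, went the other way at 130.0 and 94.3 TPM and was 1.41-fold higher in replicate 1 (1.38 to 1.45). G6pdx, the first enzyme of the pentose phosphate path, was at 1.76 and 1.62 TPM, with a ratio of 0.992 (0.775 to 1.27).

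Among NRF2 partners and repressors, 10 of 11 were tested and 2 were called higher in replicate 2, both small MAF proteins, which pair with NRF2 on DNA. Maff was at 1.41 and 4.26 TPM, a ratio of 2.86 (2.23 to 3.73), and Mafk was at 5.59 and 14.3 TPM, a ratio of 2.45 (2.21 to 2.72). The third small MAF gene, Mafg, was at 24.3 and 24.8 TPM, with a ratio of 1.04 (0.979 to 1.10), and was the most abundant of them in both libraries. Nfe2l1, the relative of NRF2 that controls proteasome genes, was at 156 and 240.5 TPM, a ratio of 1.38 (1.35 to 1.41). Its level was far above that of Nfe2l2. Bach1, a repressor of Hmox1, was at 8.77 and 9.13 TPM, and its interval held 1.

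In glutathione turnover and cystine supply, 9 of 11 genes were tested, 6 of them lay below a ratio of 1, and the median log2 ratio of -0.23 was the lowest of the lists. At 2-fold, 1 was called higher in replicate 2 and 0 in replicate 1. Chac1, which breaks down glutathione in the cytosol and is known as a stress-response gene, was at 11.9 and 45.5 TPM and was 3.69-fold higher in replicate 2 (3.37 to 4.05). Ggt5, a gamma-glutamyl transferase, at 2.12 and 1.18 TPM, and Ggct, a gamma-glutamyl cyclotransferase, at 3.87 and 2.77 TPM, were called higher in replicate 1 with the 1.5-fold limit. The background in that direction at 1.5-fold was 3.84%. Slc7a11, the cystine importer, had 9 and 6 counts and was too low to test. In the oxidant producers, 9 of 12 genes were tested and 2 were called, both at low levels: Nox4 at 0.31 and 0.79 TPM and Duox1 at 0.15 and 0.35 TPM. Of the remaining lists, 0 genes were called among the 14 tested transferases, the 10 tested peroxidases, glutaredoxins and thioredoxin-like genes, the 4 methionine sulfoxide reductases and the 7 genes of metal and heme handling. The most abundant gene of the last list was Fth1, the ferritin heavy chain that stores iron in a form that cannot drive radical formation, at 1113 and 942 TPM, above every member. The peroxidases Gpx2, Gpx5 and Gpx6 had 0 counts in both libraries.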

How the data were processed

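Gastrocnemius RNA of 1 group was measured in 2 libraries. The members and the gene lists were chosen with earlier results of these data known. The deposited expected counts and TPM per gene and the percent of isoform use came from a transcriptome alignment to mm10 with GENCODE M21, as the labels and the file list of each sample state. A second deposited table of estimated counts and TPM per transcript came directly from the reads and is called the second quantification. The aligner and the programs behind both tables were not given in the sources used here. A deposited posterior SD of each count, per the file headers, served as a score that marked genes whose reads were shared.

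Gene identifiers were matched to symbols by the transcript names in the second table. All 35 members matched 1 gene each. Expected counts were rounded to whole numbers, and 26248 tRNA entries and 96 ERCC entries were left out of the tests. Each gene with a mean count of at least 10 (14959 genes) was tested with a 2-sided exact binomial test of its counts in replicate 2 out of both, given TMM library sizes (edgeR 4.0.16). Calls needed a Benjamini-Hochberg adjusted p under 0.05 and a 2-fold ratio. The test has counting error only. With 1 group, edgeR's quasi-likelihood comparison was not made. Log2 ratios used scaled counts + 0.5, so they understate differences of low genes, and they can differ from ratios of TPM, which is scaled by length and by all RNA of the library. Intervals are 95% exact (Clopper-Pearson) and leave out the variation of library preparation. The script was tested on simulated data.

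Every member is named with its values, and of the other lists the called genes and the most abundant or best known ones, the latter chosen after their values were seen. Alternatives were DESeq2 1.42.0 size factors, total count and ERCC scaling, other count filters, pseudocounts, fold and TPM limits, the exact test of edgeR with 1 common dispersion (biological coefficient of variation 0.227, estimated from the same 2 libraries), the second quantification, rescaling to protein-coding genes, and leaving out each library. Python 3.11.15, SciPy 1.17.1 and R 4.3.3 were used. Promoter windows are from RefSeq (GRCm38.p6).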

Additional observations from a re-analysis of the deposited data

How the results depend on the processing

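The count of members called higher in replicate 2 rose from 1 to 3 with ERCC scaling (Srxn1, Cat and Sod3) and to 3 with a 1.5-fold limit. It was 1 in the other settings run, and 0 members were called higher in replicate 1 in any setting. The background in replicate 2 was 7.91% at the 1.5-fold limit. The background with ERCC scaling is not given, so the rise with that scaling is not read as a result about the members. ERCC scaling moved the median log2 ratio of all tested genes to 0.23 and that of the members to 0.35, with 30 of 35 above 0. The signs of Sod1, Prdx1, Gss, Keap1, Gstm1 and Gstp1 turned from below to above 0 with it, and the other 29 members kept their sign in all 5 scalings and quantifications. One of these settings, edgeR's exact test, took its dispersion from the same 2 libraries that it compares, so its count adds no support. The summed TPM of the members moved from 2660 to 3992 in the second quantification and to 5938 when values were rescaled to nuclear protein-coding genes, and without 1 library it was 2632 to 2687. The mean TPM of 32 of 35 members moved by more than 1 SD in the second quantification. The members' median ratio of the second quantification to the first was 1.42 in TPM. It was 0.943 after both were scaled to the same protein-coding total, so much of the move was one of scale. Depth limits Gpx8, Prdx4 and Gpx7, with 46 to 90 counts a library. With 2 libraries, 1 tissue and 1 donor record, spread between animals and technical spread cannot be told apart. No paired analysis was possible because the series has 1 group.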
